A study of Mus musculus with 6 samples.

Results

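The genes described here encode the proteins of the cytosolic ribosome, with the paralogues that can take the place of some of them. Members were chosen by gene symbol, after Ensembl identifiers had been joined to symbols: Rpl or Rps followed by a number, with an optional a, x, y, l or l1, together with Rplp0, Rplp1, Rplp2 and Rpsa, and without the Rps6k kinases and the named pseudogenes. That rule took 84 of the 30409 identifiers measured, 52 of the large and 32 of the small subunit, and 8 of the 84 were paralogues (Rpl3l, Rpl6l, Rpl7l1, Rpl10l, Rpl22l1, Rpl39l, Rps4l and Rps27l). RNA-seq came from 4 libraries of C57BL/6 mouse bone marrow cells sorted as Lineage−Sca1+cKit+CD34−Flk2−, the gate for long-term haematopoietic stem cells (LT-HSCs). The groups were wild type (WT) at steady state, Twist1 conditional knockout (cKO) at steady state, WT at 12 days after irradiation and Twist1 cKO at 12 days after irradiation. Twist1 is a transcription factor of the basic helix-loop-helix class. The Cre driver of the knockout, the radiation dose, and the age and number of animals in a library are not given in the sources used here. Each group held 1 library, so no value has a replicate check and no test between groups could be made. ATAC-seq of irradiated cells (2 samples) was not analysed here.

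Each ribosome carries 1 copy of nearly every ribosomal protein, so cells make these proteins in matched amounts, from mRNAs that are among the most abundant in growing cells. Their mRNAs begin with a run of pyrimidines after the cap (the TOP motif), through which mTOR signalling and the binding protein LARP1 set how strongly they are translated. Blood formation is sensitive to their supply: loss of 1 allele of Rps19 or of several other members causes Diamond-Blackfan anaemia, and adult haematopoietic stem cells are known for a low rate of protein synthesis. Several members have a paralogue elsewhere in the genome that can be built into the same place on the ribosome.

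The libraries differed in more than the labels. Reads recovered from the deposited FPKM (fragments or reads scaled for gene-model length and library size) came to between 20295284 and 25027791 per library. In irradiated WT the 24689199 recovered reads exceeded the library size of 22146433 implied by the FPKM. Every other library had fewer recovered reads than its implied size, for instance 20295284 against 23450734 in irradiated cKO. The cause of this mismatch was not tested, and it bears on comparisons between libraries on the deposited scale. Markers of other marrow cells were present in all 4: the 6 genes of the B and plasma cell list summed to 32190, 19567, 3056 and 7178 FPKM (WT and cKO at steady state, then WT and cKO after irradiation), the 6 erythroid genes to 2540, 1379, 9320 and 13021, the 6 macrophage genes to 1384, 435, 818 and 1436 and the 6 neutrophil genes to 1571, 2565, 420 and 1278. Smaller sums came from the 6 T and NK genes (between 83.6 and 362 FPKM) and the 5 stromal genes (between 16.3 and 82.2 FPKM), and no marker of these lists was at 0 in any library. Immunoglobulin genes held 37.7%, 28.6%, 8.50% and 24.1% of the summed FPKM. Many defining LT-HSC genes went against the gate after irradiation: the 10 of the list summed to 764 and 648 FPKM at steady state and to 102 and 265 FPKM after it, with Procr at 0.333 and 1.22 FPKM and Hlf at 0.0608 and 0.102 FPKM. Of the 10, 6 and 7 reached 5 FPKM at steady state, and 2 and 1 after irradiation. Ly6a (Sca1) made up most of each sum, with 534, 362, 89.1 and 256 FPKM. Kit, the gate's other positive marker, had 20.1, 27.6, 8.52 and 4.98 FPKM. The female transcript Xist (0.0171, 0.0155, 1.003 and 0.573 FPKM) and the Y-linked Ddx3y (10.2, 12.4, 0.0521 and 0.0164 FPKM) split the libraries along the same line as irradiation, so sex and irradiation cannot be told apart. Cd34 and Flt3 (Flk2), which the gate excludes, summed to 24.6, 38.5, 0.674 and 1.64 FPKM. Twist1 had 0.143, 0.0490, 0.140 and 0 FPKM, too little in any library for more than a weak check of the genotype labels. The part of these differences in the results below was not tested, and in such bulk libraries fewer cells of a type and less RNA per cell cannot be told apart.

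Ribosomal protein mRNA took its largest share in the irradiated WT library. The 84 genes together held 5.13% of the summed FPKM in WT and 5.09% in cKO at steady state, and 10.02% in WT and 6.87% in cKO after irradiation. As shares of recovered reads these were 4.34% (95% Clopper-Pearson interval 4.33 to 4.35), 3.83% (3.82 to 3.84), 7.07% (7.06 to 7.08) and 5.50% (5.49 to 5.51), where intervals cover counting error only. With immunoglobulin, haemoglobin and mitochondrially encoded genes left out of the total, the shares of FPKM were 8.34%, 7.24%, 11.1% and 9.41%. In each of these 3 ways of counting, the order was the same: irradiated WT, irradiated cKO, steady-state WT, steady-state cKO. Among the 100 most abundant genes of a library, members numbered 16, 16, 27 and 18. The median member had 287, 230, 551 and 341 FPKM, and 23 members passed 1000 FPKM in the irradiated WT library against 2, 2 and 5 in the others.

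**Figure D1:**
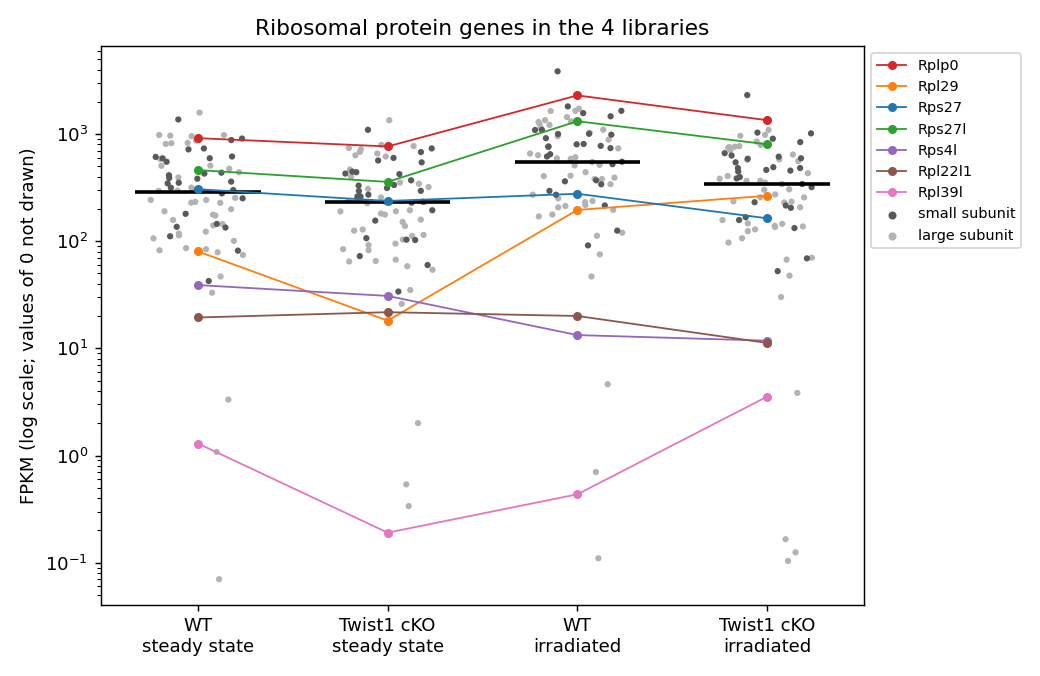
Level of each of the 84 genes in the 4 libraries, in FPKM on a log scale, with 1 point per gene (dark, small subunit; light, large subunit), the median as a black bar and 7 genes in colour, joined by lines. The median lies at 287, 230, 551 and 341 FPKM from left to right; the stalk gene Rplp0 runs well above the median throughout, Rps27 and Rps27l part after irradiation, and Rpl29 leaves the others in the steady-state cKO library.

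Levels of single members spread widely around those medians. They are per length of gene model, and recovered lengths ran from 404 bases (Rpl36) to 6270 bases (Rps15a) among members other than Rpl10l. The part of these lengths in the spread between members was not tested. Rplp0, the scaffold of the stalk, was among the most abundant, with 916 FPKM (WT) and 766 FPKM (cKO) at steady state against 2295 and 1348 FPKM after irradiation. The small subunit supplied 43.4% and 43.4% of the members' FPKM at steady state and 46.5% and 46.2% after irradiation. In all, 5 of the 84 members stayed under 5 FPKM in all 4 libraries: Rpl3l, Rpl6l, Rpl10l, Rpl39l and Rpl24. The other 79 reached 5 FPKM in the higher library of each comparison and make up the counts below. Rpl24, the large-subunit protein mutated in the Belly spot and tail mouse, had 1.08, 0.538, 0.701 and 0.166 FPKM on 29, 14, 16 and 4 reads; the sources used here do not give how the authors treated reads that match several near-identical genes, and its level is uncertain for that reason. Named pseudogene copies, 190 of them for 56 parents, summed to between 2.24% and 2.71% of the members' FPKM. Copies reached over 20% of the parent's level for 7 parents, up to 62.1% for Rpl23a, 47.1% for Rpl36a and 40.1% for Rpl3, so the split between parent and copy is uncertain there. Rpl3, which forms part of the peptidyl transferase centre, had 254, 232, 392 and 256 FPKM beside 94.5, 80.6, 153 and 82.4 FPKM for Rpl3-ps1.

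At steady state the cKO library had slightly lower levels of nearly all members. The median difference (log2 of FPKM + 1, cKO minus WT) was −0.35 over the 79 genes (quartiles over genes −0.40 and −0.31), a 1.27-fold lower level, beside 0.01 over all 7157 genes kept. Non-members at 100 FPKM or more, a comparison group added after the data were seen, had a median of −0.18. None of the 79 was at least 1.5-fold higher, where 1.77% of all genes were, and 3 were at least 1.5-fold lower (Rpl29, Rps21 and Rplp2), where 5.51% of all genes were. The difference was thus small in size and even across genes: 76 of 79 lay within 1.25-fold of the list's own median. That share was not computed over all genes, whose quartiles were −0.16 and 0.14. Scaling moved the size of the difference. With the 50 most abundant non-members left out and the rest rescaled the members' median was −0.15 and that of all genes 0.21, with 4.12% of all genes higher and 3.51% lower, and when scaled to recovered read totals the medians were −0.21 and 0.14, with 2.92% higher and 4.01% lower. The members' median less that of all genes was −0.36 on the deposited scale, −0.35 with the most abundant genes left out and −0.36 with read totals. Genes with shorter models tended to have lower differences here: as descriptions, Spearman's rho with length was 0.36 over all genes and 0.37 over the 79 members.

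Rpl29, a basic protein on the surface of the large subunit, left the list at steady state. Its level was 80.3 FPKM in WT and 18.2 FPKM in cKO at steady state, against 196 FPKM in WT and 266 FPKM in cKO after irradiation. The steady-state cKO library was the low one: it held 365 reads of Rpl29 against 1663 in the WT library, 4.42-fold less by FPKM (exact 95% interval 3.94 to 4.96). The named copies Rpl29-ps2 and Rpl29-ps5 had at most 0.447 FPKM in any library. How reads that match near-identical copies were assigned is not known here, and the counting interval does not cover that uncertainty. Among the other lowest, Rps21, a small-subunit protein, had 111 FPKM in WT and 72.6 FPKM in cKO at steady state (1.53-fold lower, 1.43 to 1.64) and 295 and 158 FPKM after irradiation (1.87-fold lower, 1.79 to 1.96). It was the lowest member in the genotype comparison after irradiation as well. Rplp2, an acidic protein of the stalk that recruits elongation factors, had 190 and 125 FPKM at steady state (1.52-fold lower, 1.47 to 1.57). At the other end were the paralogues Rpl7l1 (0.18) and Rpl22l1 (0.16), the only 2 members above 0, and then Rpl3 (−0.13).

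After irradiation the cKO library again had lower levels of nearly all members, by more. The median difference was −0.73 (quartiles −0.77 and −0.69), a 1.66-fold lower level, where all 6348 genes kept had a median of −0.45 and non-members at 100 FPKM or more −0.59. No member was at least 1.5-fold higher, against 7.42% of all genes, and 76 of 79 were at least 1.5-fold lower, against 24.6% of all genes. That count rests on the scale, and the immunoglobulin share of FPKM was 24.1% in this cKO library against 8.50% in WT. Recovered reads also exceeded the implied library size in irradiated WT and fell short of it in irradiated cKO. With recovered read totals the members' median was −0.37, all genes stood at −0.11 and 1 member was 1.5-fold higher and 0 lower (10.9% and 1.36% of all genes). With the most abundant genes left out, the median was −0.33, all genes stood at −0.07 and the members split 1 higher to 0 lower (10.8% and 1.15% of all genes). The members' median less that of all genes was −0.28, −0.26 and −0.25 on the 3 scales. Within the list the genes again lay close together, 77 of 79 within 1.25-fold of its median. That share was not computed over all genes, whose quartiles were −0.58 and −0.28. The 3 exceptions to the 1.5-fold count were Rpl29 (0.44), Rps4l (−0.16) and Rpl7l1 (−0.51), and the lowest were Rps21 (−0.90), Rps20, which joins the head of the small subunit (−0.85), and Rpl38 of the large subunit, the gene of the Tail short mouse (−0.83). In both conditions 76 of the 79 genes were lower in the cKO library. Of all genes kept, 3471 of 7157 were lower in cKO at steady state and 5554 of 6348 after irradiation. The order of the genes was only loosely shared between the conditions: across the 79 genes Spearman's rho between both genotype differences, which share no library, was 0.22, and 0.27 without Rpl29.

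**Figure D2:**
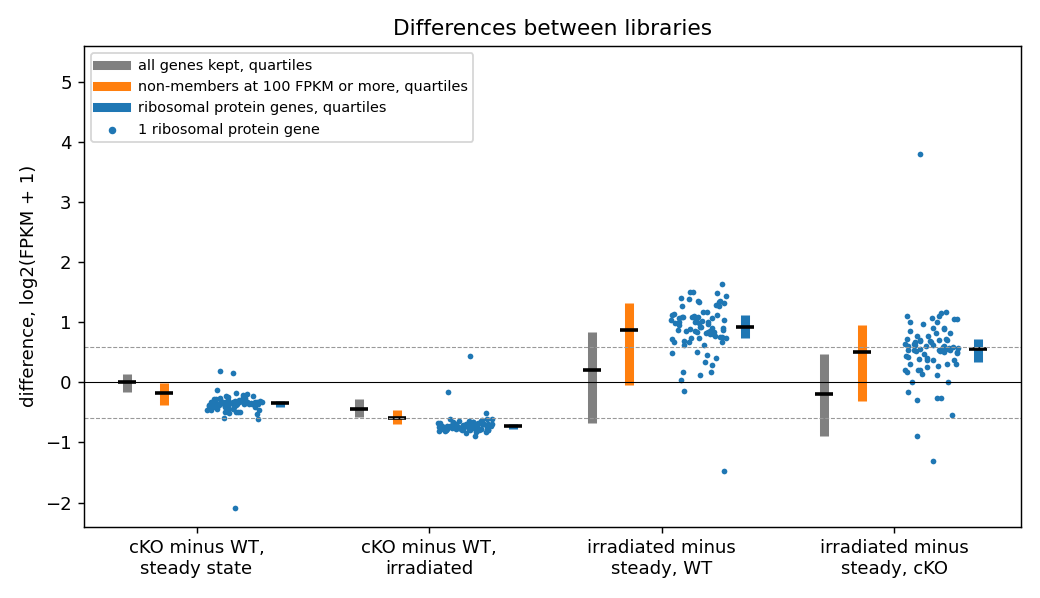
Differences in log2(FPKM + 1) for the 79 members kept (blue points; blue bars, quartiles) beside the quartiles of all genes kept (grey) and of non-members at 100 FPKM or more (orange), with medians as black dashes and 1.5-fold as dashed lines. In the genotype comparisons the members form a narrow band, at a median of −0.35 and −0.73; in the irradiation comparisons they spread more widely around 0.92 and 0.56, close to the abundant non-members.

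The 2 subunits and the functional groups within them differed little in their medians. Small-subunit genes (32 kept) had medians of −0.35 and −0.73 in the genotype comparisons at steady state and after irradiation, and large-subunit genes (47 kept) had −0.35 and −0.73. In the irradiation comparisons the medians were 0.90 (WT) and 0.56 (cKO) for the small and 0.92 and 0.58 for the large subunit. The 19 genes listed for Diamond-Blackfan anaemia had medians of −0.37, −0.73, 0.88 and 0.56 in the 4 comparisons (genotype at steady state and after irradiation, irradiation in WT and in cKO), and all 19 were at least 1.5-fold lower in the irradiated cKO library, against 24.6% of all genes. That count, too, rests on the scale: it was 0 of 19 with read totals and with the most abundant genes left out. Rps19, the gene most often mutated in that anaemia, had 279 and 229 FPKM at steady state against 340 and 205 FPKM after irradiation. Rps14, lost in the 5q− syndrome, had 734 and 599 FPKM at steady state against 1570 and 906 FPKM after irradiation, with a larger difference by irradiation in both genotypes. The 3 stalk genes Rplp0, Rplp1 and Rplp2 had medians of −0.49, −0.77, 1.08 and 0.81. On the X chromosome lie 4 of the 84 genes (Rpl10, Rpl36a, Rpl39 and Rps4x), and their medians of −0.34, −0.68, 0.98 and 0.60 were near those of the list, although the libraries differ in sex-linked transcripts.

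Irradiated cells had higher levels of most members in both genotypes, and here the genes differed among themselves. In WT the median difference (irradiated minus steady state) was 0.92 (quartiles 0.74 and 1.12), a 1.89-fold higher level, beside 0.21 over all 7418 genes kept and 0.88 over non-members at 100 FPKM or more. In WT 67 of 79 members were at least 1.5-fold higher, against 34.9% of all genes, and 1 was lower (Rps4l), against 26.9%. In cKO the median was 0.56 (quartiles 0.34 and 0.72), a 1.48-fold higher level, beside −0.20 over all 7393 genes kept and 0.51 over non-members at 100 FPKM or more. There 36 of 79 members were at least 1.5-fold higher, against 20.8% of all genes, and 2 were lower (Rps4l and Rpl22l1), against 34.6%. Members thus stood above the typical gene and near other abundant genes.

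Scaling changed these counts without turning the direction of a members' median, while the median of all genes turned, to −0.17 in WT with the most abundant genes left out and to 0.46 in cKO with upper-quartile scaling. In WT the members' median lay between 0.55 (most abundant genes left out, 38 higher and 1 lower, with 21.2% of all genes higher and 35.8% lower) and 1.46 (upper quartile, 77 higher and 1 lower, with 57.2% and 16.2%). In cKO it lay between 0.40 (19 higher and 3 lower, with 15.3% and 41.8%) and 1.16 (72 higher and 1 lower, with 44.7% and 18.4%) at the same settings. Less the median of all genes, it was between 0.69 and 0.72 in WT and between 0.71 and 0.78 in cKO over the scalings. With a minimum of 20 FPKM this gap was 0.34 in WT and 0.44 in cKO, where all genes stood at 0.58 and 0.12. The LT-HSC marker sum, mostly of Ly6a, was 102 FPKM in irradiated WT against 764 at steady state, and the immunoglobulin share was 8.50% against 37.7%. In cKO the sum was 265 against 648 FPKM and the share 24.1% against 28.6%, and the part of both in these results was not tested.

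The order of the members by their response to irradiation was nearly the same in both genotypes. Across the 79 genes Spearman's rho between the WT and the cKO difference, which share no library, was 0.95 and Pearson's r 0.79 (0.96 without Rpl29), given as a description, since all genes of a library share its scale and sequence composition. Of the 10 highest genes in WT, 9 were among the 10 highest in cKO, and 9 of the 10 lowest were shared likewise. Such values were not computed over all genes, so the shared order is not shown to be particular to the members. Rpl5, which joins Rpl11 and the 5S rRNA in the particle that binds Mdm2 when ribosome assembly fails, was the highest in WT and came next after Rpl29 in cKO, with 177 and 151 FPKM at steady state against 549 and 341 FPKM after irradiation, 3.11-fold (3.05 to 3.16) higher in WT and 2.25-fold (2.21 to 2.30) higher in cKO. Rpl11 of the same particle followed the list more closely, at 123, 94.99, 232 and 139 FPKM. Rplp0 was 2.51-fold (2.48 to 2.54) higher in WT and 1.76-fold (1.73 to 1.78) higher in cKO.

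On the deposited scale a few members were near their steady-state level in irradiated WT and below it in irradiated cKO. Rpl32 had differences of 0.17 in WT and −0.26 in cKO, Rpl10a 0.17 and −0.27 and Rps19 0.28 and −0.16. These directions depend on the scale: over the deposited values and the 4 other scalings Rpl32 lay between −0.20 and 0.71 in WT and between −0.43 and 0.34 in cKO, Rpl10a between −0.20 and 0.71 and between −0.43 and 0.33, and Rps19 between −0.08 and 0.83 and between −0.33 and 0.44. Rpl36 (0.40 and 0.01), Rpl13 (0.46 and 0.00) and Rpl37a (0.33 and 0.18) lay next to them. These genes kept the genotype difference of the list in both conditions, Rps19 for instance with −0.29 at steady state and −0.73 after irradiation. On the deposited scale 72 of the 79 genes were higher after irradiation in both genotypes. Of all genes kept, 4215 of 7418 were higher after irradiation in WT and 3126 of 7393 in cKO. Of the 79 members, 57 followed the order irradiated WT, irradiated cKO, steady-state WT, steady-state cKO. The irradiated WT library was the highest for 75 of the 79 and the steady-state cKO library the lowest for 71. Neither this order nor the highest and lowest libraries were counted over all genes. They are therefore not shown to be particular to the members. The irradiation difference was smaller in cKO than in WT for 77 of 79, with a median difference of differences of −0.38, and the 7772 genes at 5 FPKM or more in any library had −0.40, so this gap was close to that of the typical gene. The 2 members with a larger difference in cKO were Rpl29 and Rps4l.

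**Figure D3:**
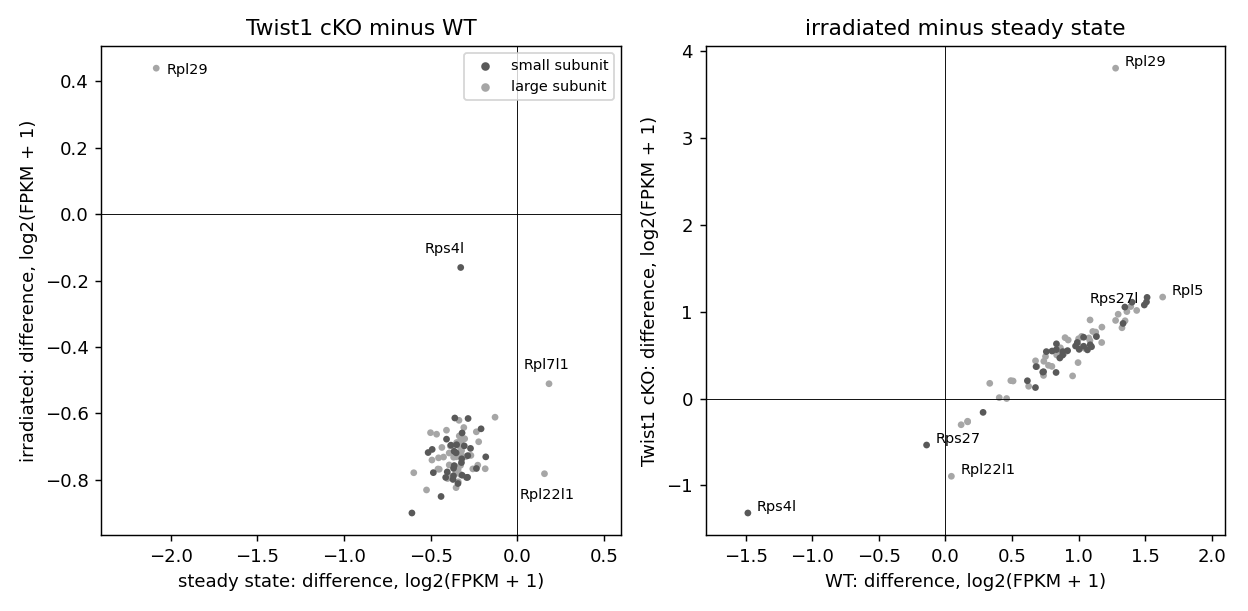
Differences in log2(FPKM + 1) of the 79 members: cKO minus WT at steady state against the same after irradiation (left), and irradiated minus steady state in WT against the same in cKO (right), with 1 point per gene (dark, small subunit; light, large subunit). On the left the genes form 1 cloud near −0.35 and −0.73 from which Rpl29, Rps4l, Rpl7l1 and Rpl22l1 stand off; on the right they lie along a line, with Rps4l at its low end, Rpl5 at its high end and Rpl29 above it.

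Several paralogue pairs shifted against each other within the list. The sequences around the start sites of 3 such pairs are shown because their partners moved apart, and those of Rps21 and Rpl5 because these canonical genes lay at the ends of the genotype and irradiation differences. Each runs 5′ to 3′ on the gene's strand from 70 bases before the annotated start to 20 bases from it on (RefSeq, GRCm38.p6), with CTTTCC, a pyrimidine run, or CCGGAAG, a core of ETS-family sites such as those of GABP, in capitals where a stretch held it. The windows lie at chr3:90213629-90213718 (minus strand) for Rps27, chr9:66946016-66946105 (plus) for Rps27l, chr4:152325656-152325745 (plus) for Rpl22, chr3:28805438-28805527 (plus) for Rpl22l1, chrX:37085203-37085292 (minus) for Rpl39, chr16:10170158-10170247 (plus) for Rpl39l, chr2:180257309-180257398 (plus) for Rps21 and chr5:107900458-107900547 (plus) for Rpl5.
Rps27: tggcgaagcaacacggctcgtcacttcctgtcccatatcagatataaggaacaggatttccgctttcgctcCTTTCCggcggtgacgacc
Rps27l: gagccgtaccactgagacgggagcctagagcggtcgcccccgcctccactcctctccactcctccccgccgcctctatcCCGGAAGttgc
Rpl22: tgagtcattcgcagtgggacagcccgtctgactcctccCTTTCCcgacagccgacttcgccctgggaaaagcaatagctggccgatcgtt
Rpl22l1: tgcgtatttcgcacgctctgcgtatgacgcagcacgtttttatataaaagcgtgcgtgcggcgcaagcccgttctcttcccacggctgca
Rpl39: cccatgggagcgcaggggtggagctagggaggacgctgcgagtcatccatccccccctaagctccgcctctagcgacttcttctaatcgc
Rpl39l: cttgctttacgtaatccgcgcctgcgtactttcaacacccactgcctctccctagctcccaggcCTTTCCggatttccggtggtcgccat
Rps21: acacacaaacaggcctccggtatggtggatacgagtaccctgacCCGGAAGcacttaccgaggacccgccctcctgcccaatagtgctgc
Rpl5: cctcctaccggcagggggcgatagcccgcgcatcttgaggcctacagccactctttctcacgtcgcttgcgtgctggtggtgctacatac

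Over whole windows of 300 bases (250 before to 50 after the start), available for 62 of the 84 members, CCGGAAG on either strand was found for 24 (38.7%), against 9.12% of 27025 genes with a window. CTTTCC on the gene's strand was found for 22 (35.5%), against 14.05% of all genes, and AAGATGGC, the core of YY1 sites, on either strand for 5 (8.06%), against 2.88%. For members kept with and without CCGGAAG the medians were −0.37 and −0.34 in the genotype comparison at steady state, 0.92 and 0.95 in the irradiation comparison in WT and 0.64 and 0.55 in that in cKO. For CTTTCC the medians in the irradiation comparisons were 0.999 with and 0.89 without it in WT, and 0.61 and 0.54 in cKO. A match of letters is a description and not a site.

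Rps27 and Rps27l, which encode nearly identical zinc-finger proteins of the small subunit, moved apart with irradiation. Rps27 had 306 and 238 FPKM at steady state (WT and cKO) and 277 and 164 FPKM after irradiation. Rps27l, a known p53 target, had 461 and 358 FPKM at steady state against 1318 and 803 FPKM after irradiation. Both irradiated libraries were high for the paralogue: Rps27l was 2.86-fold (2.79 to 2.93) higher in WT and 2.24-fold (2.18 to 2.31) higher in cKO, while Rps27 was 1.10-fold (1.07 to 1.14) and 1.45-fold (1.39 to 1.51) lower. The direction of Rps27 depends on the scale, with differences between −0.51 and 0.40 in WT and between −0.70 and 0.06 in cKO over the 5 scalings, while those of Rps27l stayed between 1.15 and 2.06 and between 0.997 and 1.76. How reads that match both genes were assigned is not known here, and the counting intervals do not cover that uncertainty. The share of Rps27l in the pair's FPKM was 60.1% (59.4 to 60.8) in WT and 60.1% (59.3 to 60.9) in cKO at steady state. After irradiation it was 82.6% (82.2 to 83.0) and 83.1% (82.6 to 83.5). Within a condition, the counting intervals of the genotypes overlapped. Promoter stretches of the pair differ in the letters searched: that of Rps27 holds CTTTCC and that of Rps27l CCGGAAG.

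Rps4x and Rps4l moved in opposite directions. Rps4x, the X-linked gene that supplies this small-subunit protein, had 413 and 331 FPKM at steady state against 760 and 481 FPKM after irradiation. Its autosomal copy Rps4l on chromosome 6 had 39.0 and 30.9 FPKM at steady state against 13.3 and 11.8 FPKM after irradiation, 2.93-fold (2.56 to 3.36) lower in WT and 2.62-fold (2.27 to 3.03) lower in cKO. Its share of the pair was 8.63% (8.12 to 9.16) and 8.54% (7.97 to 9.14) at steady state, and 1.72% (1.53 to 1.93) and 2.39% (2.12 to 2.70) after irradiation. The steady-state libraries were the high ones, and these are also the libraries with Y-linked transcripts.

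Rpl22l1 and Rpl7l1 departed from their partners by genotype at steady state. Rpl22, which binds RNA and is needed for T cell development, had 46.9 and 35.0 FPKM at steady state against 75.4 and 47.7 FPKM after irradiation. Rpl22l1, which rises when Rpl22 is lost, had 19.4 and 21.8 FPKM at steady state against 20.1 and 11.3 FPKM after irradiation. Its share of the pair was 29.3% (27.9 to 30.8) in WT and 38.3% (36.6 to 40.0) in cKO at steady state, and 21.0% (19.8 to 22.2) and 19.1% (17.7 to 20.6) after irradiation. Rpl7 had 229 and 181 FPKM at steady state against 409 and 257 FPKM after irradiation. Rpl7l1 had 101 and 114 FPKM at steady state against 196 and 137 FPKM after irradiation, a share of 30.5% (29.9 to 31.2), 38.7% (38.0 to 39.4), 32.4% (31.9 to 32.9) and 34.8% (34.2 to 35.4). In both pairs the share was highest in the steady-state cKO library, where the paralogues were above WT and their partners below it. As absolute levels the departures were small: 1.12-fold (1.03 to 1.22) for Rpl22l1 and 1.14-fold (1.10 to 1.17) for Rpl7l1.

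The remaining paralogues were scarce. Rpl39l, known mainly from testis, had 28 and 4 reads at steady state (1.29 and 0.191 FPKM) and 8 and 69 reads after irradiation (0.435 and 3.54 FPKM), beside 118, 92.2, 251 and 147 FPKM for Rpl39. The cKO library was the low one at steady state (6.79-fold lower, 2.37 to 26.6) and the high one after irradiation (8.15-fold higher, 3.91 to 19.6). Its share of the pair was 1.08% (0.723 to 1.56), 0.206% (0.0563 to 0.527), 0.173% (0.0746 to 0.340) and 2.35% (1.84 to 2.97). Rpl3l, a gene of heart and skeletal muscle, had 3, 14, 4 and 4 reads, at most 0.145% of the pair with Rpl3. Rpl10l, a testis gene, had 0 FPKM in 3 libraries and 0.125 FPKM in the irradiated cKO library. The recovered count there was 1 read, the fewest that serves, and can be low by a whole factor. By reads, 3 counts would be at most 0.0244% of the pair with Rpl10 in the libraries at 0. By FPKM the upper 95% bound was at most 0.183%. It rests on the shortest model length that serves, so it can be too high by a whole factor. Rpl6l had 77, 45, 91 and 80 reads (between 2.01 and 4.63 FPKM) and 1.88%, 1.43%, 1.1996% and 1.64% of the pair with Rpl6. Rpl36al lies outside the symbol rule but encodes nearly the same protein as Rpl36a, and it supplied most of that pair: 67.7% (67.0 to 68.4) and 66.3% (65.5 to 67.2) at steady state and 74.2% (73.7 to 74.7) and 74.4% (73.8 to 74.97) after irradiation.

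**Figure D4:**
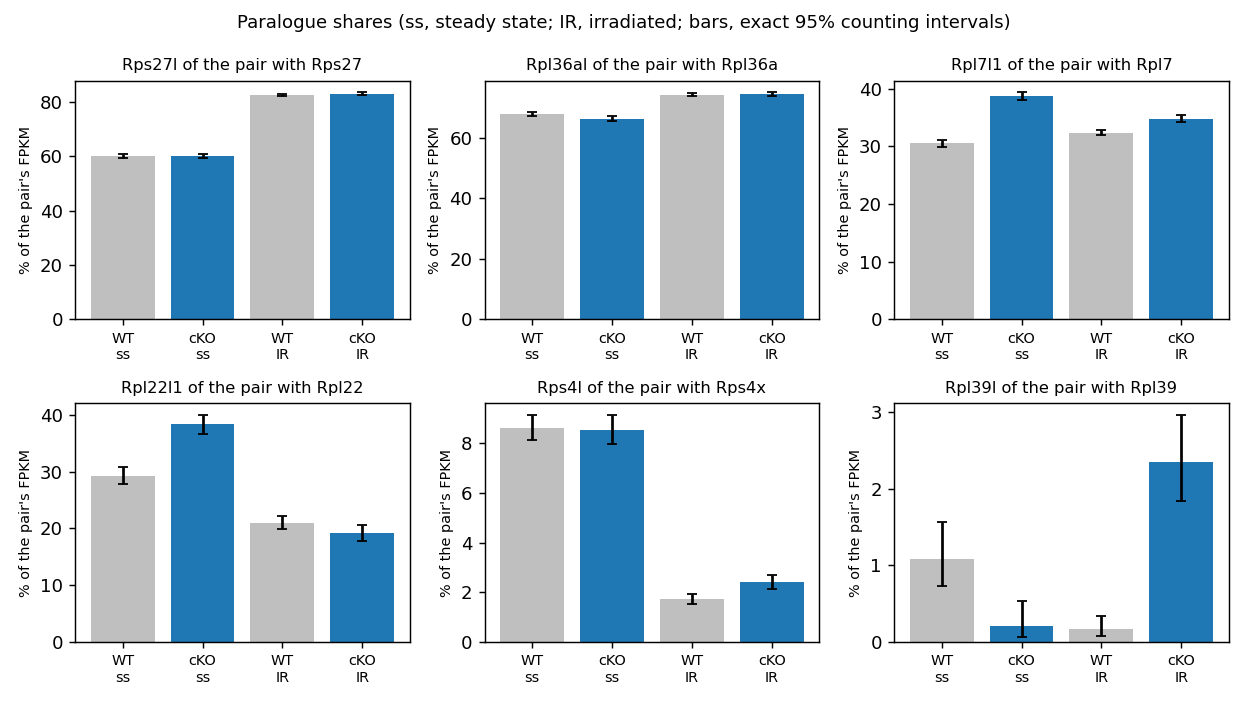
Share of the paralogue in the summed FPKM of 6 pairs in the 4 libraries (grey, WT; blue, cKO; ss, steady state; IR, irradiated), with exact 95% counting intervals and axes of different height that start at 0. Rps27l, Rpl36al and Rps4l differ by condition, Rpl7l1 and Rpl22l1 are highest in the steady-state cKO library, and Rpl39l is highest in the irradiated cKO library at 2.35%.

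Genes that work beside the ribosomal proteins moved in part with them. Translation factors and other TOP mRNAs (39 genes) had medians of −0.12 and −0.62 in the genotype comparisons, with 2 of 38 kept and 24 of 39 at least 1.5-fold lower and none higher, where 5.51% and 24.6% of all genes were lower. After irradiation that count was 0 with read totals and with the most abundant genes left out, and 11 with median-of-ratios scaling. On the deposited scale the steady-state median was nearer to that of all genes than the members' was. The 2 lower at steady state were Pabpc1, at 49.1 FPKM in WT and 29.0 in cKO, and Pabpc4, at 6.09 and 3.02 FPKM, which encode cytosolic poly(A)-binding proteins. Eef1d, a subunit of the exchange factor for elongation factor 1A, had 173 FPKM in WT and 99.8 FPKM in cKO after irradiation. With irradiation the list had medians of 1.011 in WT (27 higher and 2 lower of 39, against 34.9% and 26.9% of all genes) and 0.49 in cKO (19 higher and 3 lower, against 20.8% and 34.6%).

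Regulators and chaperones of ribosomal protein synthesis (25 genes, 18 or 19 kept) had medians of 0.04 and −0.47 by genotype, close to those of all genes, with 0 of 18 past 1.5-fold at steady state and 5 of 19 lower after irradiation, close to the 24.6% of all genes. With irradiation their medians were 0.43 in WT (7 of 19 higher, 2 lower, against 34.9% and 26.9% of all genes) and −0.19 in cKO (4 of 18 higher, 5 lower, against 20.8% and 34.6%). Myc, which drives ribosome biogenesis, had 172 and 197 FPKM at steady state against 192 and 98.1 FPKM after irradiation. Eif4ebp1, the mTOR-controlled inhibitor of cap-dependent initiation, had 209, 179, 490 and 278 FPKM, and Tsc1, which restrains mTOR, stayed under 5 FPKM throughout. Ribosomal proteins outside the symbol rule had medians of −0.37 (4 kept), −0.70, 1.21 and 1.06, with Fau, which carries Rps30, at 302, 221, 819 and 466 FPKM, and Rack1, a scaffold on the small subunit, at 138, 113, 492 and 302 FPKM.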

How the data were processed

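The authors deposited 1 FPKM value per gene and library, 30409 identifiers each, per the file headers. For the whole series, build mm10 and the tools HOMER, MACS2 2.1.0, BWA 0.7.12-r1039 and Bowtie stand in the submitters' processing notes; the RNA aligner, the counting and its strand are not given in the sources used here. Symbols were joined to 30231 identifiers. Differences are log2(FPKM + 1); genes were kept where the higher library reached 5 FPKM, and counted from 1.5-fold. Whole reads were recovered from the ratios of a gene's 4 values (tolerance 0.02) for 99.947% of identifiers. They are the fewest reads that serve, so they can be low by a whole factor. Data were simulated from the recovered reads and lengths, with the library sizes given. There the reads were exact for 95.4% of 1344 genes with 100 reads or more and 78.2% of 1656 with fewer. The simulation tests neither the library sizes nor whether the recovered lengths are those of the gene models. Intervals are exact (Clopper-Pearson; conditional binomial for ratios of FPKM), at 95%, and cover counting error only; the floor is 3 reads. Members, lists and the rule for named genes (the 3 highest and 3 lowest members of each comparison relative to the list median, all paralogue pairs, the stalk, Rpl5, Rpl11, Rps19, Rps14, the 3 highest by mean, and up to 3 genes of each further list) were chosen with earlier results of these data known; members named for low or unusual values beyond it were chosen after those were seen. Some genes that the rule takes in are not reported here. For 12 of the named genes, 24 pseudogene copies reached 1 FPKM; those that bear on a value are named. Alternatives were other pseudocounts, minimum levels, scalings, and wider or narrower lists. Python 3.11.15, numpy 2.4.6, pandas 2.3.3 and scipy 1.17.1 were used.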

Additional observations from a re-analysis of the deposited data

Results flagged for a closer look

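For 7 of the members reported here the 2 differences under the same contrast had opposite signs on the deposited scale with both counting intervals excluding a ratio of 1, which was not tested, since each group held 1 library; values are differences of differences in log2(FPKM + 1). By genotype (irradiated less steady state), Rpl29 had 2.52, being lower in cKO at steady state and higher after irradiation, and Rpl39l had 2.61, on 4 to 69 reads per library. Rpl22l1 (−0.94) and Rpl7l1 (−0.69) were slightly higher in cKO at steady state and lower after irradiation. By irradiation (cKO less WT), Rpl10a (−0.43), Rpl32 (−0.43) and Rps19 (−0.44) were higher after irradiation in WT and lower in cKO, with values near the median of −0.40 over all genes; under upper-quartile scaling all 3 were higher in both genotypes, at up to 0.33, 0.34 and 0.44 in cKO. Rpl39l, with 2.61 here too, was lower after irradiation in WT and higher in cKO.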

How the results depend on the processing

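No alternative turned the sign of a members' median, and the cause of the shifts was not tested. No paired analysis was possible because each group held 1 library, and for the same reason no library could be left out of a group. A pseudocount of 5 left 1 member at least 1.5-fold lower in cKO at steady state, against 3.8% of all genes. Minimum levels of 1 FPKM or none brought in Rpl39l, with 1 member then higher in cKO after irradiation and 2 lower after irradiation in WT. Of all genes, 13.8% (1 FPKM) and 7.2% (none) were higher in the former comparison, and 31.8% and 14.7% lower in the latter. With a minimum of 20 FPKM the members' median less that of all genes was −0.30, −0.20, 0.34 and 0.44 in the 4 comparisons. Median-of-ratios scaling gave medians of −0.63 (genotype, irradiated), 1.07 (irradiation, WT) and 0.82 (irradiation, cKO), with 59 members higher in the last, where 30.6% of all genes were. Upper-quartile scaling gave −0.37, −0.69, 1.46 and 1.16 in the 4 comparisons, with 72 higher and 1 lower in the last (44.7% and 18.4% of all genes). With the 50 most abundant non-members left out, the medians were −0.15, −0.33, 0.55 and 0.40, with 1 lower at steady state (3.51% of all genes), 1 higher and 0 lower by genotype after irradiation (10.8% and 1.15%), and 38 and 19 higher with irradiation (21.2% and 15.3%). Scaling to recovered read totals, chosen after seeing the data, gave −0.21, −0.37 and 0.70 in the first 3 comparisons, with 1 lower at steady state (4.01% of all genes) and 1 higher and 0 lower by genotype after irradiation (10.9% and 1.36%). Leaving out paralogues, also chosen after seeing the data, left 0 members lower after irradiation in WT and in cKO, against 26.9% and 34.6% of all genes.

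Shares of summed FPKM (WT and cKO at steady state, then irradiated) were 8.34%, 7.24%, 11.1% and 9.41% without immunoglobulin, haemoglobin and mitochondrial genes, 5.27%, 5.23%, 10.2% and 7.04% with pseudogene copies added, and 5.43%, 5.39%, 10.6% and 7.29% with the wider list. By reads, without scaling for length, paralogue shares in the same order were 54.1%, 54.1%, 78.8% and 79.3% for Rps27l, 63.2%, 61.7%, 70.2% and 70.4% for Rpl36al, 29.9%, 38.0%, 31.7% and 34.1% for Rpl7l1, 22.1%, 29.8%, 15.4% and 13.9% for Rpl22l1, 5.18%, 5.12%, 1.002% and 1.40% for Rps4l and 0.540%, 0.408%, 0.342% and 0.470% for Rpl6l. Rpl39l had 0.632% in WT at steady state and 1.38% in cKO after irradiation, and Rpl3l 0.0765% in cKO at steady state. Few reads limit the 5 members under 5 FPKM, which had between 0 and 91 recovered reads in a library. Among them the canonical Rpl24 had 29, 14, 16 and 4 reads. Its level is uncertain because the treatment of reads that match near-identical genes is not known here.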
